A study of Mus musculus with 6 samples.

Results

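The collagen genes of the mouse were followed in 6 pools of RNA from testis and embryo. Members were the genes whose symbol is Col, a number, a and a number, with nothing more, and which had a probe set listed with that symbol alone. RefSeq (GRCm38.p6) holds 44 such symbols, and 42 of them were measured among 18193 genes; Col28a1 and Col6a6 were not listed with a single-symbol probe set. A gene was represented by its probe set of highest mean log2 signal over the 6 arrays. Of the 42 genes, 34 were above the array median on at least 2 arrays and entered the fits, among 13027 genes in all. A gene that is bright in only 1 tissue enters through that tissue, so the 34 are not a neutral sample of the family.

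Affymetrix mouse arrays were used to read transcripts in the fetal testis (stage E13.5, in embryonic days), in the testis of newborns on postnatal day 1 (PN1), and in entire male embryos of stage E13.5. Each tissue was taken from the inbred strain 129/Sv and from 129.MOLF-Chr19, a consomic strain that carries chromosome 19 of the MOLF strain on the 129 background. All mice were male and none was treated. For each strain, 20 pairs of testes were pooled at E13.5 and 3 whole embryos were pooled. At PN1 the pool was of 12 pairs in 129/Sv but of 25 in 129.MOLF-Chr19. The study looked for strain differences in the gonad at stages thought to matter for testicular germ cell tumors, to which 129.MOLF-Chr19 is prone, and used the embryo as the tissue outside the gonad. Each of the 6 groups was 1 pool on 1 array, so the strains of a tissue served as its 2 arrays, and every p-value below measures only the spread between these arrays, with 2 residual degrees of freedom.

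Collagens are triple-helical proteins of the extracellular matrix. Fibrillar collagens build the banded fibrils of connective tissue and cartilage, type IV collagen forms the mesh of basement membranes, and type VI collagen forms beaded filaments around cells. Fibril-associated collagens (FACIT) sit on the surface of fibrils, and multiplexins lie in basement membrane zones. In the testis, a basement membrane surrounds the seminiferous cords, made by the Sertoli cells within and the peritubular cells around them, while the interstitium holds fibrillar collagen. Cartilage of the embryonic skeleton is the best known source of types II, IX and XI.

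Array medians ran from 220.5 to 250.7 intensity units, and the number of arrays limits the precision. The Actb ratio of 3 prime to 5 prime signal, a measure of RNA quality, reached 1.84 on 1 array, that of 129.MOLF-Chr19 at PN1, and lay from 1.09 to 1.19 on the remaining 5. The 18S control signal was 3053 on the 129/Sv embryo array and 571 to 787 on the others. Markers bore out the labelled tissues. All 8 Sertoli markers were above the array median on both arrays of each testis age, and their summed signal was 11760 to 11961 at E13.5, 21925 to 22050 at PN1 and 3419 to 4125 in the embryo. Of 5 measured germ cell markers, Ddx4, Dazl and Pou5f1 were at the floor on both embryo arrays, the floor being the 25th percentile of an array. There Dppa3 lay above the floor, at 221 and 190, and Dnd1 above the array median, at 440 and 355. Skeletal muscle markers summed to 10707 to 11599 in the embryo and to 1091 to 1214 in the testes.

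**Figure D1:**
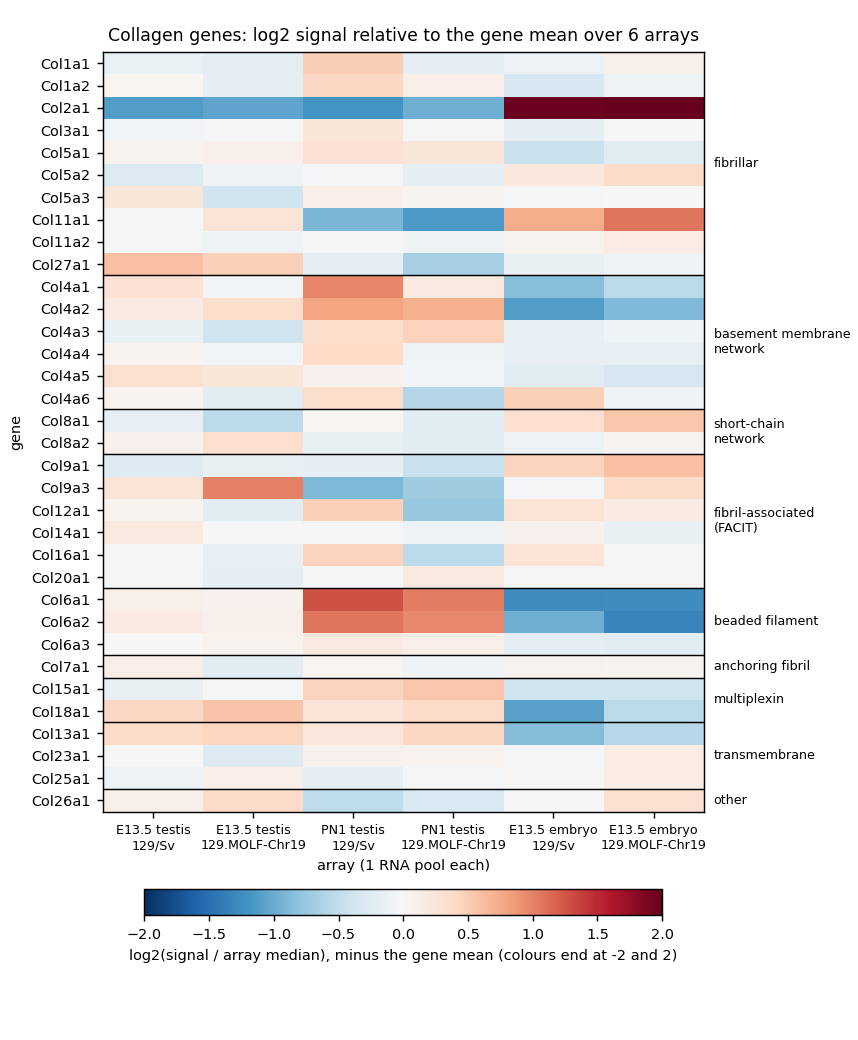
Log2 signal of the 34 tested collagen genes (rows, in order of class) on the 6 arrays (columns), each as log2 of signal over array median minus the gene's own mean. Col2a1 stands apart in both embryo columns, Col6a1 and Col6a2 in both PN1 testis columns, and Col11a1 is low at PN1 and high in the embryo.

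Between E13.5 and PN1, 5 of the 34 tested collagen genes rose in the testis and 4 fell. The members that rose were Col6a1 and Col6a2 of the beaded filaments, Col4a2 and Col4a3 of the basement membrane, and the multiplexin Col15a1. Those that fell were Col9a3, Col11a1 and Col27a1, which are known from cartilage, and Col26a1. Col4a3 entered the fit through its PN1 arrays alone, so its rise was favoured by the filter and is no support for the count. Over all 13027 genes, 15.0% were called at an adjusted p under 0.05 (limma, Benjamini-Hochberg), 4.21% as higher and 10.8% as lower. The median log2 difference was 0.06 over the collagen genes and -0.03 over all genes tested. In pooled whole tissue, more cells of a type and more RNA per cell cannot be told apart, here and in every result below. Leaving out either E13.5 testis array left 0 members higher and 1 lower (Col9a3), with 295 or 296 genes called in all.

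Against the whole embryo at the same age, 9 of 34 collagen genes were higher in the E13.5 testis and 5 were lower. Over all genes 22.5% were called, 17.2% higher and 5.34% lower. The higher members were Col6a1, Col6a2, Col18a1, Col4a1, Col4a2, Col4a5, Col13a1, Col27a1 and Col5a1, and the lower ones were Col2a1, Col11a1, Col8a1, Col9a1 and Col5a2. Col8a1 passed the filter only with its embryo arrays, so its lower call was favoured by the filter and is no support for the count. The median difference was 0.07 for the members and 0.03 for all genes. Without the 129/Sv embryo array, or without either E13.5 testis array, 5 members remained higher (Col6a1, Col6a2, Col18a1, Col4a2 and Col13a1). Without the 129.MOLF-Chr19 embryo array or either E13.5 testis array, Col2a1 was the 1 member still called lower.

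Between PN1 testis and embryo, 10 of 34 members (Col4a3, admitted by its PN1 arrays, among them) were higher and 5 were lower, where 19.6% of all genes were called, 11.7% higher and 7.85% lower. The median difference was 0.06 for the members and -0.01 for all genes. The higher members were Col6a1, Col6a2, Col4a1, Col4a2, Col4a3, Col18a1, Col15a1, Col13a1, Col5a1 and Col1a2, and the lower ones Col2a1, Col11a1, Col9a3, Col9a1 and Col26a1. The count of lower members moved to 3 without the 129.MOLF-Chr19 embryo array (Col2a1, Col11a1 and Col9a3) and to 11 without the 129/Sv PN1 array. With the probe set of highest mean linear intensity in place of that of highest mean log2 signal, a choice tried after the values were seen, 2 members were read by another probe set. Col4a4 was then called higher in all 3 comparisons and Col18a1 lower by age, so the counts became 6 higher and 5 lower by age, 10 higher at E13.5 and 11 higher at PN1. That probe set of Col4a4 was above the array median on the testis arrays alone. Its calls against the embryo were thus favoured by the filter and are no support for the counts. These 3 comparisons share arrays, so their lists are not independent of each other. The share of higher calls among all called genes moved with the scaling. By age it was 28.0%, and against the embryo it was 76.3% for the E13.5 testis and 59.9% for the PN1 testis, but 47.0%, 55.9% and 57.4% after quantile normalization and 25.4%, 64.5% and 44.0% on the values as deposited. Among the members, 5 higher and 4 lower by age held under both. For E13.5 testis against embryo they became 6 higher and 5 lower after quantile normalization (2703 of 13027 genes called). On the values as deposited they were 8 and 5 (2836 genes called). For PN1 testis against embryo they became 10 and 7 (2722 genes called), and 9 and 7 (2816 genes called).

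**Figure D2:**
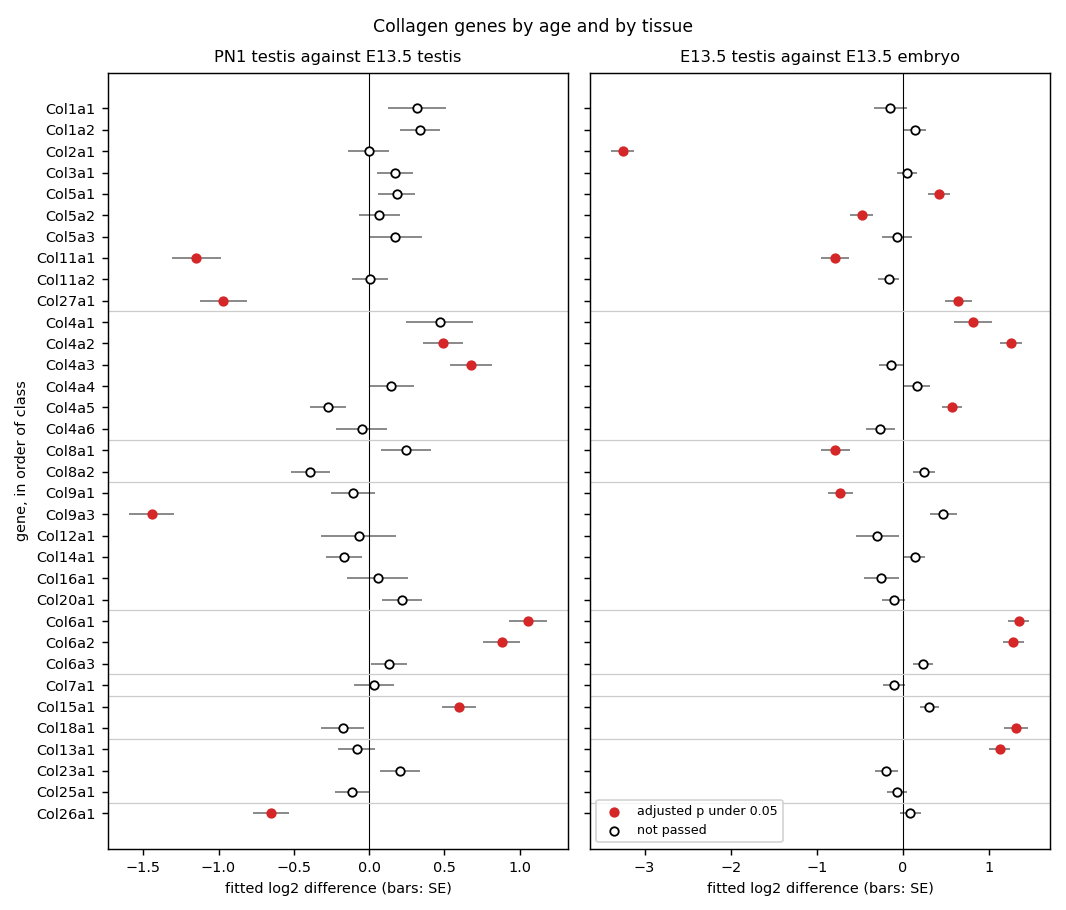
Fitted log2 difference (points) with its standard error (bars) for the 34 tested collagen genes, in order of class, by age in the testis, PN1 against E13.5 (left), and by tissue, E13.5 testis against the embryo of that stage (right). Filled points passed an adjusted p of 0.05: 5 higher and 4 lower by age, 9 higher and 5 lower by tissue.

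By the representing probe sets, the largest rises with age among the 34 genes were in 2 chains of type VI collagen, though other probe sets of Col4a4, described below, rose further. Col6a1 and Col6a2, which assemble with Col6a3 into the beaded filaments of connective tissue, are both on chromosome 10, on the minus strand. Signals below are intensity units in the order 129/Sv then 129.MOLF-Chr19, and differences are fitted log2 values ± SE over 2 arrays a tissue. Col6a1 gave 2420 and 2185 in the E13.5 testis, 5190 and 4358 in the PN1 testis, and 981 and 939 in the embryo. Col6a2 gave 3720 and 3264 in the E13.5 testis, 6604 and 6150 in the PN1 testis, and 1766 and 1301 in the embryo. For both genes the 3 tissues did not overlap, with PN1 testis on top and the embryo at the bottom.

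Between the ages Col6a1 rose by 1.06 ± 0.13 (2.08-fold, adjusted p = 0.00214) and Col6a2 by 0.88 ± 0.12 (1.84-fold, adjusted p = 0.00372). Against the embryo the E13.5 testis was higher by 1.34 ± 0.13 for Col6a1 (2.54-fold, adjusted p = 0.000402) and by 1.28 ± 0.12 for Col6a2 (2.44-fold, adjusted p = 0.000414). At PN1 the differences from the embryo were 2.40 ± 0.13 for Col6a1 (5.28-fold, adjusted p = 1.25e-05) and 2.16 ± 0.12 for Col6a2 (4.48-fold, adjusted p = 1.8e-05). Both tissue calls held whichever array was left out. The calls by age lost the threshold without either E13.5 testis array, at an adjusted p of 0.0527 or 0.0601 for Col6a1 and 0.0607 or 0.0854 for Col6a2. A second probe set of Col6a2 gave like differences of 1.05 by age and 1.32 for E13.5 testis against embryo. Their partner Col6a3 ran from 946 to 1204 over the 6 arrays and was called in none of the comparisons, with differences of 0.13, 0.23 and 0.36. Col6a4 and Col6a5, chains that can take the place of Col6a3, did not reach the array median on any array. Beside this rise, the 5 peritubular and smooth muscle markers summed to 3742 to 4581 in the E13.5 testis, 8526 to 11692 at PN1 and 5350 to 6597 in the embryo; their part in the result was not tested.

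The promoter stretches of the 2 genes are shown because both rose with age and both exceeded the embryo at either age. Each is the 250 bases before a RefSeq transcript start (GRCm38.p6), Col6a1 at chr10:76726045-76726294 and Col6a2 at chr10:76623631-76623880, both read on the minus strand, 5′ to 3′. Capitals here and below mark a CCAAT box. They also mark a GC box, whose letters are GGGCGG. They mark a TATA box as well, spelled TATAAA in this search. The last motif is the core that SOX factors bind, written AACAAT here. Each was searched on both strands, with no overlap between marked matches.
Col6a1: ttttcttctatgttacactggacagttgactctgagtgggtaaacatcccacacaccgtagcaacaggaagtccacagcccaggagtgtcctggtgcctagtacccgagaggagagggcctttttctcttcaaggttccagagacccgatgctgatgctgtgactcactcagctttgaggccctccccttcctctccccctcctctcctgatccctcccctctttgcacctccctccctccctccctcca
Col6a2: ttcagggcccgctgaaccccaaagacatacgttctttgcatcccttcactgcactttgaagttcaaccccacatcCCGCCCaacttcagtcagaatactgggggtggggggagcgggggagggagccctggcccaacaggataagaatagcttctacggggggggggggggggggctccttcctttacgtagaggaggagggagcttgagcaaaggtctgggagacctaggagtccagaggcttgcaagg
The Col6a1 stretch holds none of the 4 motifs, and that of Col6a2 holds 1 GC box on the opposite strand. A second annotated start of Col6a2 lies at 76623404; its window, mostly inside the gene and not printed, holds 3 GC boxes, of which 2 overlap. Of 32851 windows of 250 bases in the RefSeq table, 33.8% hold the CCAAT box, 32.7% the GC box, 12.4% the TATA box and 9.42% the SOX core. Of 38 such windows of 33 collagen genes, 13 hold the CCAAT box, 22 the GC box, 5 the TATA box and 1 the SOX core. A match is a description of the letters, not a site of binding.

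The genes of type IV collagen, the mesh of basement membranes, divided by chain. Col4a1 and Col4a2 encode the chains of the common network, and both were higher in testis than in embryo. Col4a1 gave 6564 and 4733 in the E13.5 testis, 10040.2 and 5865 in the PN1 testis, and 3106 and 3620 in the embryo. Col4a2 gave 2276 and 2395 in the E13.5 testis, 3341 and 3185 at PN1, and 981.5 and 1090 in the embryo. For Col4a2 the 3 tissues did not overlap, whereas for Col4a1 the testes of the 2 ages overlapped and only the embryo lay below.

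Col4a2 rose by 0.49 ± 0.13 between the ages (1.41-fold, adjusted p = 0.043) and exceeded the embryo by 1.26 ± 0.13 at E13.5 (adjusted p = 0.000608) and by 1.75 ± 0.13 at PN1 (adjusted p = 8.42e-05). Its call by age was lost without either E13.5 testis array (adjusted p = 0.259 or 0.289) and without the 129/Sv PN1 array (adjusted p = 0.201). Col4a1 exceeded the embryo by 0.82 ± 0.22 at E13.5 (adjusted p = 0.0342) and by 1.29 ± 0.22 at PN1 (adjusted p = 0.00554). The first of these calls was lost without the 129/Sv embryo array (0.38, adjusted p = 0.222) or either E13.5 testis array (adjusted p = 0.205 or 0.213). By age Col4a1 differed by 0.47 ± 0.22 (adjusted p = 0.209). The 2 genes lie head to head on chromosome 8, with annotated starts at 11312826 on the minus strand for Col4a1 and 11312805 on the plus strand for Col4a2 (GRCm38.p6). Their windows of 250 bases overlap by 78 bases. Endothelial markers, another source of these chains, summed to 4252 to 4265 in the E13.5 testis, 3266 to 3376 at PN1 and 2608 to 2662 in the embryo. The sum hides markers that parted with age. Kdr gave 1926 and 1536 in the E13.5 testis and 802 and 707 at PN1. Cdh5 went the other way, from 767 and 933 to 1186 and 1175. Of 4 endothelial markers tested by age, 0 were called higher and 1, Kdr, lower. The part of these markers in the result was not tested.

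Col4a3, Col4a4 and Col4a5 encode the chains of the network found in the glomerulus and in the testis. Col4a3 gave 221 and 172 in the E13.5 testis, 298 and 321 at PN1, and 228 and 227 in the embryo. PN1 was highest without overlap, and only there did Col4a3 lie above the array median, so a gene admitted this way had to be high at PN1. It rose by 0.67 ± 0.14 with age (1.60-fold, adjusted p = 0.0176) and was above the embryo at PN1 by 0.53 ± 0.14 (adjusted p = 0.0339). The call by age was lost without either E13.5 testis array (adjusted p = 0.235 or 0.0756) or the 129.MOLF-Chr19 PN1 array (adjusted p = 0.0797). The call against the embryo was lost without any single array other than the 129/Sv PN1 array, at an adjusted p of up to 0.170, and also with no expression filter (adjusted p = 0.0653) and on the values as deposited (adjusted p = 0.0794). A filter at the 75th percentile left Col4a3 out. Col4a5, an X-linked chain, gave 940 and 828 in the E13.5 testis, 763 and 692.5 at PN1, and 667 and 593 in the embryo. It was higher in the E13.5 testis than in the embryo, without overlap, by 0.57 ± 0.12 (adjusted p = 0.0119). That call was lost without any 1 of the 4 arrays compared, at an adjusted p of 0.056 to 0.162, and after quantile normalization (adjusted p = 0.0588). Col4a6, its neighbour on the X chromosome, was called in none of the comparisons.

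**Figure D3:**
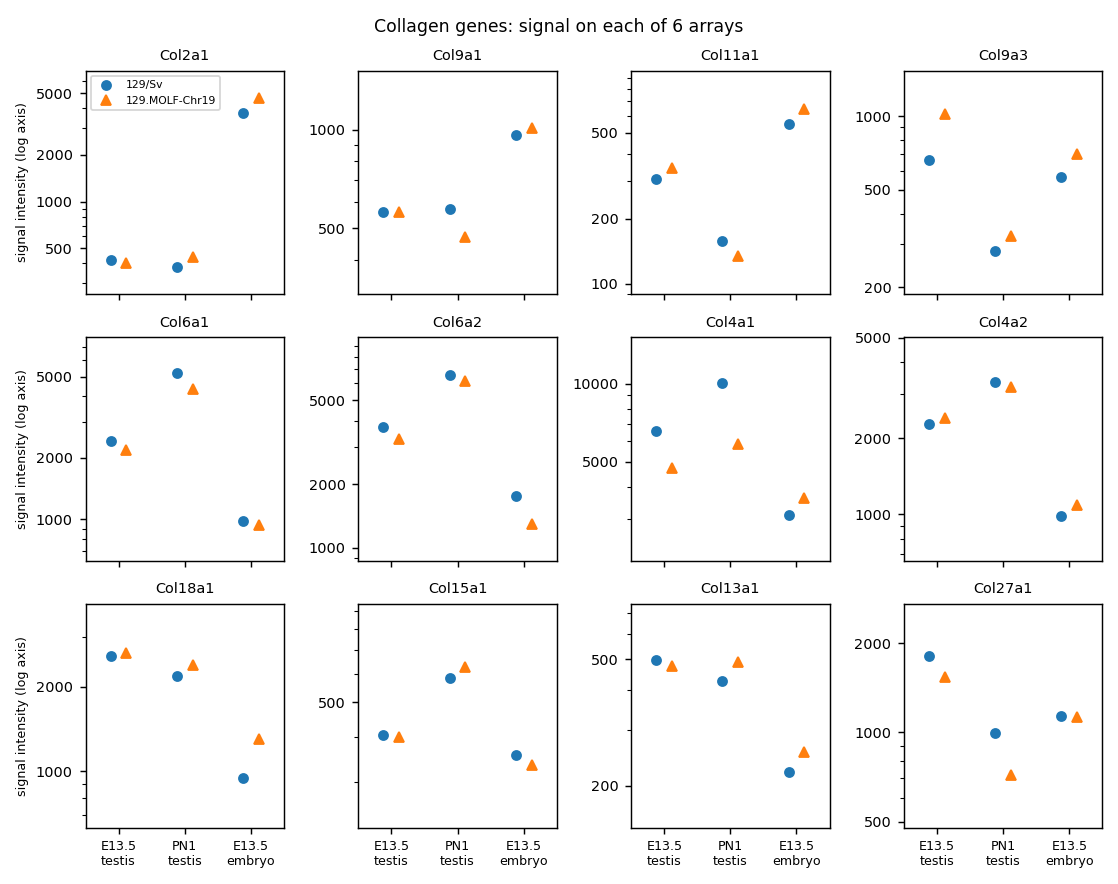
Signal intensity (log axis) of 12 collagen genes on each of the 6 arrays, with circles for 129/Sv and triangles for 129.MOLF-Chr19. Col2a1 lies between 379 and 442 on the 4 testis arrays and at 3734 and 4664 in the embryo, and Col6a1 climbs from the embryo through E13.5 testis to PN1 testis.

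The probe set that represents Col4a4 and the 2 others of that gene gave different pictures. The representing probe set gave 774 and 662 in the E13.5 testis, 928 and 669 at PN1, and 697.5 and 656 in the embryo, with no call by age (0.15 ± 0.15, adjusted p = 0.56). A second probe set of Col4a4 gave 280.4 and 268 at E13.5, 1831 and 1856 at PN1, and 106 and 122 in the embryo. Another gave 143 and 140.2 at E13.5, 643 and 692 at PN1, and 85.2 and 104 in the embryo. In both of these the PN1 testis stood far above the other 4 arrays in both strains. Fitted among 21373 probe sets, they rose with age by 2.76 (adjusted p = 0.000198) and 2.24 (adjusted p = 0.000464), and PN1 testis exceeded the embryo by 3.99 and 2.55 (adjusted p = 1.62e-05 and 7.94e-05). The probe set that gave 2.24 and 2.55 was above the array median on the PN1 arrays alone and at the floor on both embryo arrays. Its rise and its excess were thus favoured by the filter and are no support for those of the other. The second probe set was above the array median on the testis arrays alone and at the floor on the 129/Sv embryo array. Its excess over the embryo was thus favoured by the filter as well. Which transcript each probe set reads was not determined here. The choice between them is narrow: the representing probe set had a mean intensity of 731 over the 6 arrays and the second one 744. The rule of highest mean log2 signal leaves Col4a4 out of the genes counted as higher, while the highest mean intensity and the mean of its probe sets put it in.

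Other members also had probe sets that parted. A second probe set of Col4a5 gave 1065 and 912 in the E13.5 testis, 534 and 557 at PN1, and 241.5 and 306 in the embryo. It fell with age by 0.84 (adjusted p = 0.0202), while the representing one gave -0.27 with no call, and its excess over the embryo at E13.5 was 1.94 (adjusted p = 0.000905). A pair of further probe sets of Col14a1, a FACIT of connective tissue, fell with age by 1.02 and 1.10 (adjusted p = 0.0149 and 0.0115), where the representing one gave -0.16. The probe set that fell by 1.10 was above the array median on the E13.5 testis arrays alone. Its fall was thus favoured by the filter and is no support for that of the other. In the fit of 21373 probe sets, 57 belonged to collagen genes; by age 9 of the 57 were called higher and 10 lower, where 13.7% of all probe sets were called. Against the embryo 16 were higher and 6 lower at E13.5 (19.8% of all called), and 17 were higher and 8 lower at PN1 (16.9% of all called). Of the members called by age, 3 had another tested probe set, and all 3 of those were called in the same direction. Among these, the probe set of Col9a3 passed the filter through the E13.5 testis arrays alone, where it was high, so it is no support. For E13.5 testis against embryo 9 of 10 such other probe sets had the same sign and 6 were also called. The 1 of opposite sign was of Col5a2 (0.23, against -0.48). That of Col8a1, called lower, passed the filter through its embryo arrays alone and is likewise no support. For PN1 testis against embryo all 8 had the same sign and 7 were called.

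**Figure D4:**
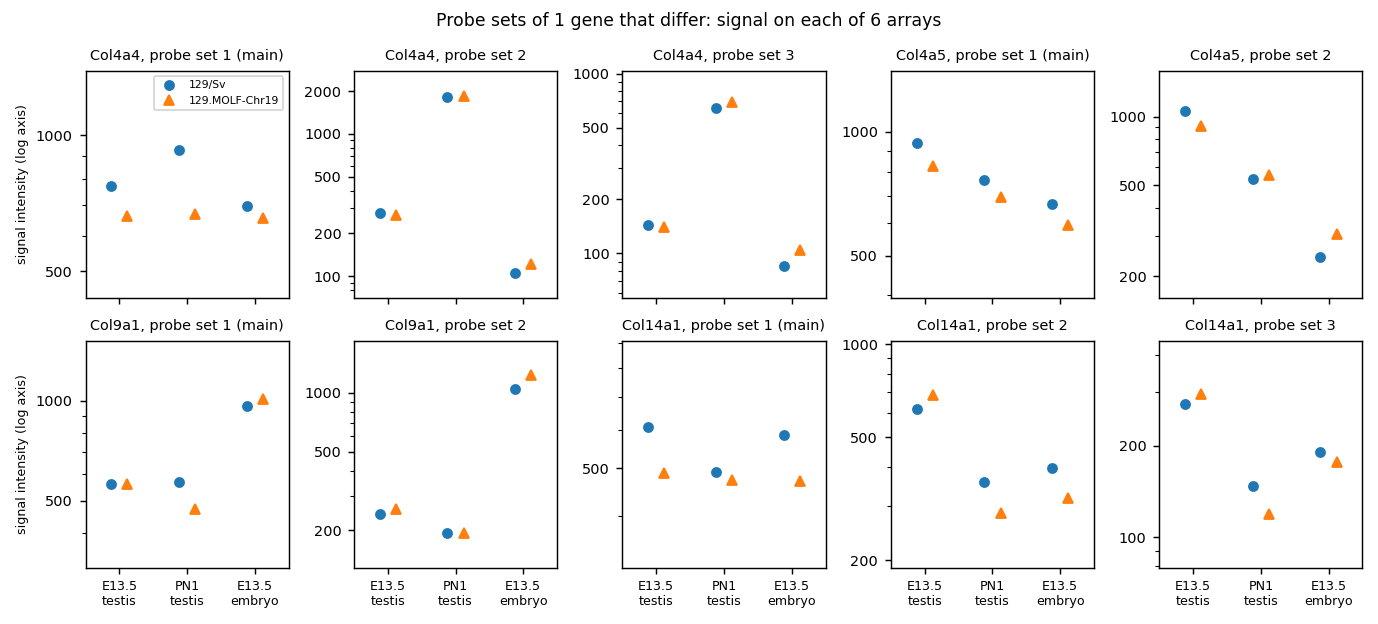
Signal intensity (log axis) on the 6 arrays for each tested probe set of Col4a4, Col4a5, Col9a1 and Col14a1, with circles for 129/Sv and triangles for 129.MOLF-Chr19. The first probe set of a gene is the one that represents it. Those of Col4a4 run from 656 to 928 in the first and reach 1831 and 1856 at PN1 in the second.

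Of the 10 fibrillar chains tested, 0 rose with age and 2 fell, 2 were above embryo and 3 below at E13.5, and 2 were above embryo and 2 below at PN1. Among all genes tested, 4.21% rose and 10.8% fell with age. Above and below embryo were 17.2% and 5.34% of them at E13.5, and 11.7% and 7.85% at PN1. Col2a1, the chain of type II collagen, gave 421 and 404 in the E13.5 testis, 379 and 442 at PN1, and 3734 and 4664 in the embryo. The testes of both ages overlapped, and the embryo lay far above them. E13.5 testis was lower than embryo by 9.55-fold (log2 difference -3.26 ± 0.13, adjusted p = 6.87e-06), and PN1 testis by 9.57-fold (adjusted p = 4.14e-06). Col2a1 was still called in both comparisons with any array left out. By age it differed by less than 0.01 (adjusted p = 0.99), and it stayed above the array median on all 4 testis arrays.

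Col11a1, a chain that controls fibril width, gave 307 and 345 in the E13.5 testis, 158.5 and 134 at PN1, and 547 and 646 in the embryo. No tissue overlapped another. It fell with age by 1.15 ± 0.16 (2.22-fold, adjusted p = 0.00399), and E13.5 testis was below embryo by 1.72-fold (log2 difference -0.79 ± 0.16, adjusted p = 0.0119). PN1 testis lay 3.82-fold below the embryo (adjusted p = 0.000162), and there Col11a1 was under the array median on both arrays. The call by age was lost without either E13.5 testis array (adjusted p = 0.0882 or 0.0551), and that at E13.5 against embryo without either of these or the 129.MOLF-Chr19 embryo array (adjusted p = 0.0833 to 0.138). Col27a1, a fibrillar chain of cartilage, took another course, with 1803 and 1535 in the E13.5 testis, 994 and 717 at PN1, and 1135 and 1125 in the embryo. The E13.5 testis was highest without overlap. Col27a1 fell with age by 0.97 ± 0.16 (1.96-fold, adjusted p = 0.00662), and the E13.5 testis exceeded the embryo by 0.64 ± 0.16 (adjusted p = 0.0228). Its second probe set gave -0.80 and 0.70 for the same comparisons, and both were called. Without either E13.5 testis array the call by age of Col27a1 was lost (adjusted p = 0.122 or 0.0925). The call against embryo was lost without either of these or the 129/Sv embryo array (adjusted p = 0.139 to 0.228) and after quantile normalization (adjusted p = 0.0735).

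Col1a2, a chain of type I collagen, gave 9283 and 7314 in the E13.5 testis, 11426 and 9408 at PN1, and 7589 and 8317 in the embryo. PN1 testis exceeded the embryo without overlap by 0.48 ± 0.13 (adjusted p = 0.0427). Its second probe set gave 3634 and 3501, 5861 and 5394, and 3023 and 3099 in the same order. That probe set rose with age by 0.67 (adjusted p = 0.015) and exceeded the embryo at PN1 by 0.97 (adjusted p = 0.00222). Col5a1, which nucleates type I fibrils, gave 1756 and 1656 in the E13.5 testis, 1955 and 1892 at PN1, and 1298 and 1402 in the embryo, and was above the embryo by 0.42 ± 0.13 at E13.5 (adjusted p = 0.0484) and 0.60 ± 0.13 at PN1 (adjusted p = 0.0132). Its partner Col5a2 went the other way, with 1748 and 1837 in the E13.5 testis, 1969 and 1771 at PN1, and 2562 and 2738 in the embryo, a difference at E13.5 of -0.48 ± 0.14 (adjusted p = 0.0391). For Col5a1 and Col5a2 the testis arrays did not overlap the embryo arrays. These E13.5 calls were each lost without any 1 of the 4 arrays compared (adjusted p = 0.0727 to 0.282 for Col5a1 and 0.092 to 0.281 for Col5a2), and the mean over probe sets lost both (0.31, adjusted p = 0.113, and -0.13, adjusted p = 0.480). At PN1 the call of Col5a1 was lost without the 129/Sv embryo array (adjusted p = 0.094) or the 129/Sv PN1 array (adjusted p = 0.0532). That of Col1a2 was lost without 4 of the 6 arrays in turn (adjusted p = 0.0829 to 0.317), the exceptions being the 129.MOLF-Chr19 arrays of embryo and PN1 testis. By their representing probe sets Col1a1, Col3a1, Col5a3 and Col11a2, the last a chain of cartilage, were called in none of the 3 comparisons. The other probe set of Col3a1 gave 2124 and 1736 in the E13.5 testis, 1986 and 1926 at PN1, and 1314 and 1247 in the embryo, and exceeded the embryo by 0.67 at E13.5 (adjusted p = 0.0128) and 0.70 at PN1 (adjusted p = 0.0105).

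Of 6 FACIT genes tested, Col9a1 and Col9a3, chains of the type IX collagen that coats cartilage fibrils, were both lower in PN1 testis than in embryo. Col9a1 was also lower at E13.5, and Col9a3 also fell with age. Col9a1 gave 562 and 561 in the E13.5 testis, 571 and 472 at PN1, and 961 and 1010 in the embryo, so the embryo was highest and the testes overlapped. It was lower than in embryo by 0.73 on the log2 scale at E13.5 (SE 0.15, adjusted p = 0.0103) and by 0.83 at PN1 (SE 0.15, adjusted p = 0.00591). The first call was lost without the 129.MOLF-Chr19 embryo array (adjusted p = 0.0788) or either E13.5 testis array (adjusted p = 0.0924 or 0.131), and the second without the 129.MOLF-Chr19 embryo array (adjusted p = 0.0585). A second probe set of Col9a1 showed a wider gap, with 241 and 257 in the E13.5 testis, 193.4 and 193.6 at PN1, and 1038 and 1224 in the embryo. There the difference at E13.5 was -2.10 (adjusted p = 0.000359).

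Col9a3 gave 665 and 1024 in the E13.5 testis, 281 and 323 at PN1, and 566.5 and 702 in the embryo. PN1 testis lay below all other arrays, while the E13.5 testis and the embryo overlapped. Col9a3 fell with age by 1.44 ± 0.15 (2.72-fold, adjusted p = 0.00123) and at PN1 was 1.96-fold below the embryo (adjusted p = 0.00339). This fall was called whichever array was left out. Its second probe set fell by 1.91 (adjusted p = 0.00105). That probe set was above the array median on the E13.5 testis arrays alone and at the floor on both PN1 arrays. Its fall was thus favoured by the filter and is no support for the call. Col9a2, the remaining chain of type IX, reached the array median on 1 array only and was not tested. The 8 cartilage markers summed to 1518 to 1558 in the E13.5 testis, 1559 to 1627 at PN1 and 2532 to 2740 in the embryo. Matn1 and Cnmd, which encode cartilage matrix proteins, were at the floor on both E13.5 testis arrays. Of the 4 cartilage markers tested, 2 were lower in E13.5 testis than in embryo, where 5.34% of all genes were called lower. These were Matn4, with a log2 difference of -1.96, and Cnmd, with -1.95. Each was above the array median on the embryo arrays alone, so its lower level in the testis was favoured by the filter. The part of the cartilage markers in the results for the collagen genes was not tested.

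The upstream sequences of Col9a1 and Col11a1 are shown because Col9a1 has more than 1 annotated start, 17593 bases apart, and because both genes were lower in testis than in embryo. They were read on the plus strand from GRCm38.p6. The first Col9a1 stretch (chr1:24177360-24177588, 229 bases) lies before the gene, and the second (chr1:24194953-24195202, 250 bases) lies inside the gene's span, before an inner start. The Col11a1 stretch (chr3:114030290-114030478) is the 189 bases before the gene.
Col9a1, outer start: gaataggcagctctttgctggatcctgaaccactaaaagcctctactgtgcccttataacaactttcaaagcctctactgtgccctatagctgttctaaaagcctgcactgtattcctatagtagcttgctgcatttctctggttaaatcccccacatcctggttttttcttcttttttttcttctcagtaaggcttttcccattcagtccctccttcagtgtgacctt
Col9a1, inner start: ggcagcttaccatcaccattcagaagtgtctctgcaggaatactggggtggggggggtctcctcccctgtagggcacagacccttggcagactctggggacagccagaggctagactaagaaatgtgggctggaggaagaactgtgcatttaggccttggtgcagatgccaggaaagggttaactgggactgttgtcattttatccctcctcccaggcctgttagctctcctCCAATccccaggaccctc
Col11a1: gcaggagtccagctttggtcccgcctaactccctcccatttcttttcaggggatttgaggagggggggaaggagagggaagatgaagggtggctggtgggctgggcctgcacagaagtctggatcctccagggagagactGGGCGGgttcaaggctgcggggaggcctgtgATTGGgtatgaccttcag
The outer Col9a1 stretch holds none of the 4 motifs and the inner one holds 1 CCAAT. The Col11a1 stretch holds 1 GC box and, on the opposite strand, 1 CCAAT. Which start each Col9a1 probe set follows was not determined here.

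Both multiplexins were higher in PN1 testis than in embryo; Col18a1 was also higher at E13.5, and Col15a1 also rose with age. Col18a1, the precursor of endostatin, gave 2565 and 2629 in the E13.5 testis, 2177 and 2396 at PN1, and 943 and 1298 in the embryo. The embryo was lowest, well apart from the testes. Col18a1 was above the embryo by 1.31 ± 0.14 at E13.5 (2.49-fold, adjusted p = 0.000773) and by 1.14 ± 0.14 at PN1 (2.20-fold, adjusted p = 0.00119), with any array left out. By age it differed by -0.18 (adjusted p = 0.47), while its second probe set, with 3075 and 3016 at E13.5 and 2092 and 2014 at PN1, fell by 0.56 (adjusted p = 0.0431). Col15a1 gave 405 and 401 in the E13.5 testis, 585 and 627 at PN1, and 356 and 334 in the embryo, and its 3 tissues did not overlap. It rose with age by 0.60 ± 0.11 (1.51-fold, adjusted p = 0.0133) and at PN1 exceeded the embryo by 0.90 ± 0.11 (1.87-fold, adjusted p = 0.00123). The rise was lost without either E13.5 testis array (adjusted p = 0.141 or 0.146).

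Col13a1, a transmembrane collagen of cell adhesion sites, gave 498 and 478 in the E13.5 testis, 427 and 491 at PN1, and 221 and 256 in the embryo. The testes overlapped each other, and the embryo was lower. Col13a1 was above the embryo by 1.12 ± 0.12 at E13.5 (2.18-fold, adjusted p = 0.00073) and by 1.04 ± 0.12 at PN1 (2.05-fold, adjusted p = 0.000818), and kept both calls with any array left out. Col26a1, first described in testis and ovary, gave 812 and 907 in the E13.5 testis, 508 and 581 at PN1, and 799 and 919 in the embryo. PN1 testis was lowest without overlap. Col26a1 fell with age by 0.65 ± 0.12 (1.57-fold, adjusted p = 0.0108) and was 1.48-fold below the embryo at PN1 (adjusted p = 0.0139). The fall with age was lost without either E13.5 testis array (adjusted p = 0.156 or 0.124), and the PN1 call against embryo without either embryo array or the 129.MOLF-Chr19 PN1 array (adjusted p = 0.0582 to 0.0785). The mean over probe sets lost both calls (adjusted p = 0.0641 by age and 0.0858 against embryo); the other probe set of Col26a1 was below the floor on all 6 arrays.

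Col8a1, a short-chain collagen of vessel walls and the cornea, gave 211 and 151 in the E13.5 testis, 230.1 and 192.5 at PN1, and 311 and 341 in the embryo, the highest without overlap. At E13.5 it was 1.72-fold lower in testis than in embryo (adjusted p = 0.0129), a call lost without the 129.MOLF-Chr19 embryo array (adjusted p = 0.0835) or either E13.5 testis array (adjusted p = 0.19 or 0.0577). The second probe set of Col8a1 gave 127 and 99.1, 110 and 102, and 389 and 433 in the same order, a difference at E13.5 of -1.73 (adjusted p = 0.00122). It passed the filter through its embryo arrays alone and was at the floor on 3 arrays. The representing one was above the median on both embryo arrays and 1 PN1 array, but on no E13.5 testis array. For both probe sets a lower E13.5 testis was thus favoured by the filter, and the second is no support for the first. In all, 19 of the 34 tested genes were called in at least 1 of the 3 comparisons, as were 33.3% of all 13027 genes, and 15 in none. The 15 had signals from 168 (Col5a3) to 9700 (Col3a1) and differences from -0.39 to 0.36. The 8 genes that were not tested (Col6a4, Col6a5, Col9a2, Col10a1, Col17a1, Col19a1, Col22a1 and Col24a1) had signals from 73.5 to 259.

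Genes that make, process and bind collagen were counted from lists by role, with 64 of 69 genes measured and 53 tested. By age 5 of the 53 rose and 7 fell; E13.5 testis was above embryo for 18 and below for 2; PN1 testis was above embryo for 18 and below for 3. Of all genes, 4.21% rose and 10.8% fell by age, 17.2% and 5.34% were above and below embryo at E13.5, and 11.7% and 7.85% at PN1. The median differences were 0.02, 0.22 and 0.12, beside -0.03, 0.03 and -0.01 over all genes. Of the 11 tested basement membrane partners, 1 rose with age and 2 fell, and at E13.5 5 were above embryo and none below. Lama2, a laminin chain, gave 234 and 236 in the E13.5 testis, 969 and 988 at PN1, and 281.5 and 313 in the embryo, a rise with age of 2.06 ± 0.12 (adjusted p = 9.4e-05). Nid2, a nidogen that links laminin to type IV collagen, fell with age by 0.93 ± 0.14 (adjusted p = 0.0045), from 984 and 874 to 539 and 431, and the proteoglycan Agrn fell by 0.73 ± 0.12. Lama1, Lamb1, Nid1 and Nid2 exceeded the embryo at E13.5 by 1.38, 1.02, 1.39 and 1.10. Lama1 was above the array median on the testis arrays alone, so its excess was favoured by the filter and is no support for the counts.

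Of 14 tested enzymes of prolyl and lysyl modification, 1 fell with age and 4 were above embryo at E13.5. Plod2, a lysyl hydroxylase of the collagen telopeptides, gave 1599 and 1348 in the E13.5 testis, 729.5 and 476 at PN1, and 658 and 814 in the embryo. It fell with age by 1.31 ± 0.22 (adjusted p = 0.0077) and the E13.5 testis was above the embryo by 1.09 ± 0.22. Of 3 tested genes of procollagen processing, Pcolce, which enhances removal of the C-propeptide, rose with age by 0.46 ± 0.12 and exceeded the embryo by 2.02 ± 0.12 at E13.5 and 2.47 ± 0.12 at PN1. Its signals were 2642 and 2461, 3315 and 3642, and 652.5 and 683.5 in E13.5 testis, PN1 testis and embryo. Of 5 crosslinking enzymes, Lox rose with age by 0.64 ± 0.15 and Tgm2 fell by 0.78 ± 0.12, while Tgm2 and Loxl1 were above embryo at E13.5 by 2.29 and 1.13 and Lox and Loxl4 were below it. Of 7 genes of folding and export, Ctage5 fell with age by 0.60, and Creb3l1, Ctage5 and Sec24d were above embryo at E13.5. Mmp2, a gelatinase, was the 1 of 5 breakdown genes called there (1.78 ± 0.15). Of 5 proteoglycans that bind fibrils, Dcn and Bgn each rose with age by 0.52 and were above embryo at E13.5 by 1.18 and 1.11, and Lum fell with age by 0.53. Of 3 tested receptors, Ddr2 fell with age by 0.91 ± 0.17 (adjusted p = 0.013).

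Across the 3 tissues, limma called 0 of the 34 collagen genes between the strains, where 0.0230% of all genes (3 of 13027) were called, 0.0154% as higher and 0.00768% as lower in 129.MOLF-Chr19. At an unadjusted p under 0.05 there were 6 members (Col4a6, Col9a3, Col12a1, Col16a1, Col18a1 and Col26a1), against 15.8% of all genes. The lowest adjusted p was 0.285, shared by Col4a6 (-0.59 ± 0.14, 129.MOLF-Chr19 minus 129/Sv, lower in 3 of 3 tissues) and Col9a3 (0.44 ± 0.12, higher in 3 of 3 tissues). Col4a6, a basement membrane chain, gave 1146 and 878.5 in the E13.5 testis, 1332 and 698 at PN1, and 1595 and 1022 in the embryo. The second probe set of Col4a6 gave a strain difference of 0.21, of the opposite sign. The 1 collagen gene on chromosome 19, the chromosome that differs between the strains, is Col17a1, a hemidesmosome collagen. It gave 116 and 73.5, 121 and 124, and 151 and 112 in E13.5 testis, PN1 testis and embryo, below the array median throughout, and was not tested.

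Within a tissue, each strain had 1 array, so there was no test, and genes were counted at 2-fold or more. In the E13.5 testis 0 of 33 compared members passed this, where 0.0878% of all genes did, 0.0559% higher and 0.0319% lower in 129.MOLF-Chr19. In the PN1 testis 0 were higher and 1 was lower, where 1.09% of all genes passed, 0.204% higher and 0.888% lower. In the embryo 0 passed, beside 0.339% of all genes, 0.0552% higher and 0.284% lower. The 1 member was Col12a1, a FACIT of tendon and other dense connective tissue, with 1119 in 129/Sv and 474.5 in 129.MOLF-Chr19 at PN1 (log2 difference -1.24). In the E13.5 testis it gave 885 and 667, and in the embryo 1074 and 934. The other 3 probe sets of Col12a1 gave little signal at PN1, 140.3 and 131 for the brightest, and the mean over the 4 put the difference at -0.33, short of 2-fold.

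At PN1 24 of 33 members were lower in 129.MOLF-Chr19 and 9 higher, with a median of -0.10, beside 0.03 over all genes. In the E13.5 testis 17 were lower and 16 higher (median -0.03, beside 0.06), and in the embryo 10 were lower and 23 higher (median 0.16, beside 0.02). The share of all genes of each sign is not given, so only the medians set these counts beside all genes. The members furthest down at PN1 after Col12a1 were Col16a1, Col4a6, Col4a1 and Col1a1, at 1926 and 986, 1332 and 698, 10040.2 and 5865, and 7498 and 4713, all past 1.5-fold. Where another probe set was tested, it gave a smaller gap or none in this direction, with 359 and 483 for Col4a6 (0.42, of the opposite sign), 6770 and 4694 for Col4a1 (-0.53), and 3765 and 3557 for Col1a1 (-0.08). The largest difference in the E13.5 testis was in Col9a3 (0.74), and in the embryo in Col4a6 (-0.55) and Col18a1 (0.55). The PN1 array of 129.MOLF-Chr19 is the one with the Actb ratio of 1.84. On it, the summed signal of 6 fibroblast and interstitial markers was 9583, beside 13696 in 129/Sv, and that of the peritubular and smooth muscle markers 8526, beside 11692. Most of the first gap was in Nr2f2, a nuclear receptor, at 558 beside 3325, while Pdgfra gave 3120 beside 3382 and Fn1 1970 beside 1848. In the second list Acta2 gave 5190 beside 7173, Tagln 1769 beside 2878 and Myh11 326 beside 302. The part of RNA quality, of these cells and of the unequal pool sizes in the PN1 values was not tested.

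**Figure D5:**
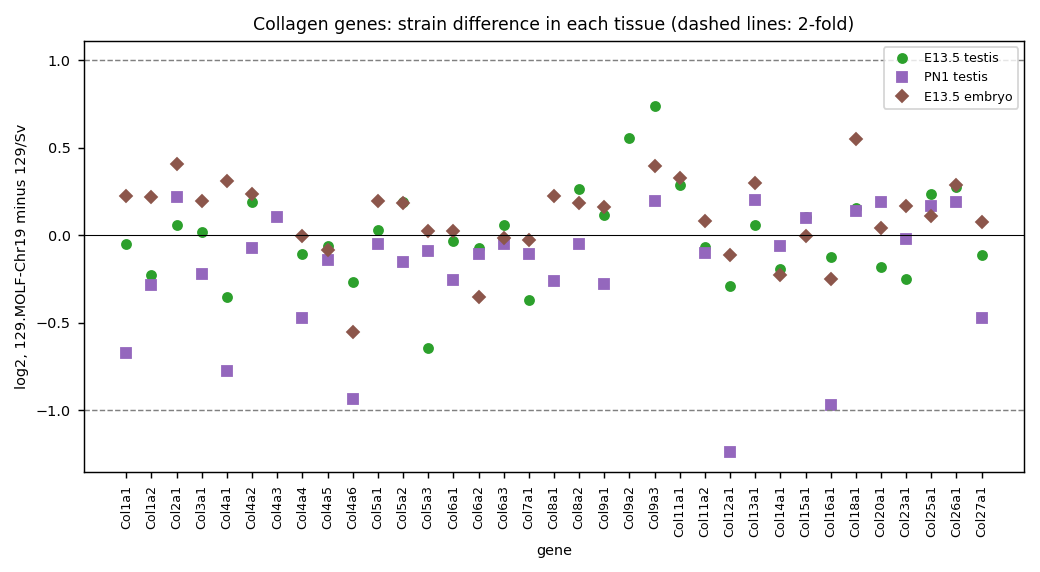
Log2 strain difference (129.MOLF-Chr19 minus 129/Sv) of the collagen genes in each tissue, with dashed lines at 2-fold; a gene is drawn in a tissue only where its higher array lies above the array median. Col12a1 at PN1 (-1.24) is the 1 point past 2-fold, and at PN1 24 of 33 points lie below 0.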

How the data were processed

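The authors deposited 1 table of 6 arrays, with a linear intensity for each probe set; the summary method is not given in the sources used here. Per the labels' protocols, RNA was isolated from pooled testes or embryos and labelled by T7 amplification. Probe sets numbered 45101, of which 64 were controls, 34945 other probe sets had 1 gene symbol, 932 several and 9211 none. Symbols came from the platform annotation, and 34741 were matched by Entrez identifier to RefSeq.

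Values were raised to the 25th percentile of their array, log2 transformed and centred on the array median, and the probe set of highest mean of these log2 values was taken per gene. The functions lmFit and eBayes (with trend) of limma 3.58.1, run in R 4.3.3, were fitted to all 6 arrays with tissue and strain as terms, two-sided, with Benjamini-Hochberg adjustment at 0.05 over 13027 genes. A difference is thus between group means of log2 values, and a signal below the floor understates it. Strain differences within a tissue were counted at 2-fold among genes whose higher array was above its median. Values on all arrays are given for members past a threshold and for up to 4 genes of smallest p from a list, with some others chosen after their values were seen. Members and lists were chosen with earlier results of these data known. On simulated data with 200 changed genes among 13027, the fits by age, by tissue at E13.5, by tissue at PN1 and by strain called 51%, 46%, 50% and 79% of genes changed by 1 (log2) and 81%, 93%, 84% and 95% of those changed by 2, with 2 to 6 false calls. No other gene differed between groups there, whereas 15.0% to 22.5% of genes were called by age or tissue in the data. The simulated shares and false calls thus do not carry over to those fits. Promoter windows came from a RefSeq table, which held 33 of the collagen genes. Plots were made in Python 3.11.15 with matplotlib 3.10.9.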

Additional observations from a re-analysis of the deposited data

How the results depend on the processing

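Results were recomputed from uncentred values, after quantile normalization, with the floor dropped or set at the 40th percentile, with other filters, with other uses of probe sets, with other limma variance settings, without the strain block, from only the arrays compared, at other fold thresholds and with each array left out. A common floor after scaling, and the probe set of highest mean intensity, were added after seeing the data. No called direction turned under any of these. The mean of all probe sets gave 8 collagen genes higher by age in place of 5, 3 lower at E13.5 against embryo in place of 5, and 0 lower by strain at PN1 in place of 1. Each probe set on its own gave 7 genes higher and 7 lower by age in place of 5 and 4. Against the embryo it gave 11 and 4 at E13.5 in place of 9 and 5, and 12 and 6 at PN1 in place of 10 and 5. Of all probe sets, 13.7%, 19.8% and 16.9% were called. In that fit the representing probe sets of Col4a2 by age and of Col4a1, Col5a1 and Col5a2 at E13.5 lost their calls. So did those of Col1a2 and Col4a3 at PN1 against embryo (limma, adjusted p = 0.0519 to 0.0623 for all of these). Leaving out an array gave 0 to 7 genes higher and 1 to 6 lower by age, 5 to 10 higher and 1 to 5 lower at E13.5 against embryo, and 7 to 11 higher and 3 to 11 lower at PN1 against embryo. At 1.5-fold, the E13.5 testis had 1 higher and 1 lower by strain, the PN1 testis had 5 lower, and at 3-fold 0 lower at PN1. Shares of all genes at these thresholds, with the mean of all probe sets and with an array left out are not given here. Those counts are thus no result about the members. Without the block for strain, 34 of 38 called differences of single genes were still called. Those lost were Col4a2 by age (adjusted p = 0.0815), Col5a1 and Col5a2 at E13.5 against embryo (0.0979 and 0.0642) and Col26a1 at PN1 against embryo (0.0568), all by limma. With no expression filter 6 were lost, Col4a2 by age, Col4a1, Col5a1 and Col5a2 at E13.5 against embryo, and Col1a2 and Col4a3 at PN1 against embryo (adjusted p = 0.0543 to 0.166). No paired analysis by replicate number was possible because the labels hold none. Signals near the floor limit what can be said of the 8 genes not tested.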
